A study of Mus musculus with 3 samples.

Results

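Histone genes were described in RNA of sorted cells of the mouse main olfactory epithelium, the tissue that holds the olfactory sensory neurons. They were taken by row name: names starting with Hist1h to Hist4h, H2af, H3f3 or H1f, without Hist2h2be. This gave 89 of the 34617 gene rows, of which 70 lie in or are named after the histone clusters (Hist1 to Hist4) and 19 are replacement variants and their pseudogenes. The O/Tet3 library came from mice of strain FVB with the transgenes OMP-tTA and tetO-Tet3-GFP, in which a transactivator driven from Omp, the olfactory marker protein gene of mature neurons, switches on Tet3, an enzyme that oxidises 5-methylcytosine. The mOSN library (mature olfactory sensory neurons) came from OMP-ires-EGFP positive cells of C57BL/6J mice, which carry a green fluorescent reporter at Omp. Both came from mice aged 4 weeks and both are ribosomal RNA-depleted total RNA, so histone messages without a poly(A) tail could be captured. Each group has 1 library, the libraries also differ in strain and reporter, and the sources used here do not say whether animals were pooled. A remaining sample, DNA of O/Tet3 mice enriched for 5-hydroxymethylcytosine, is not analysed here.

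Histones package DNA: a nucleosome wraps DNA around a core of H2A, H2B, H3 and H4, and the linker histone H1 binds where DNA enters and leaves. The clustered genes are mostly replication-dependent: they lack introns, their messages end in a stem-loop in place of a poly(A) tail, and they are made in bulk during S phase. Replacement variants such as H2A.Z, macroH2A and the H3 variant encoded by H3f3a and H3f3b are made throughout the cell cycle from dispersed genes with introns and polyadenylated messages, and in neurons, which no longer divide, they become a main source of new histones. Some clustered genes also make polyadenylated messages in differentiated cells.

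Values are the linear values behind the deposited log2(value + 1), in a unit the table does not name, and each log2 ratio sets O/Tet3 over mOSN after 1 is added to both values, so a difference between low values is understated. A row was compared when 1 library or both had a value of 1 or more. It was counted as higher or lower when value + 1 differed 2-fold or more, that is, by 1 on the log2 scale. With 1 library a group there is no replicate, test or p-value, so each count describes these libraries. In rows with low values in both libraries the most frequent log2 ratio of the values was 0.91, so that 1 read stood for a 1.88-fold larger value in O/Tet3 than in mOSN. The targeted gene Tet3 was at 145 in O/Tet3 and 3.72 in mOSN. All 8 mature olfactory neuron markers were above 0 in both libraries and lower in O/Tet3, with a summed value of 667 in O/Tet3 and 2995 in mOSN.

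Of the 70 clustered genes, 39 could be compared, and 14 were higher and 2 lower in O/Tet3. Over all 12943 compared rows, 16.5% were higher and 12.0% lower. After each ratio was centred by subtracting 0.21, the median log2 ratio of the 9934 rows with values of 1 or more in both libraries, 10 clustered genes were higher and 3 lower, against 1464 and 1953 of all compared rows. Of the 39 genes, 26 reached a value of 1 in both libraries, 11 only in O/Tet3 and 2 only in mOSN, so the direction of those 13 was partly set by the floor. Among the 26, 7 were higher and 1 lower, against 13.1% higher and 6.50% lower of the 9934 rows that reached 1 in both libraries. The median log2 ratio of the 39 was 0.67, against 0.21 over all compared rows. Without any floor, 46 of the 70 had a larger value in O/Tet3, 16 a smaller one and 8 were listed at 0 in both. Over all 34617 rows, 35.5% had a larger value in O/Tet3 and 30.5% a smaller one.

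Of the 19 replacement rows, 9 could be compared, and all 9 reached a value of 1 in both. Of these, 3 were higher and 0 lower, or 0 higher and 1 lower (H2afy2) after the same centring. Their log2 ratios had a median of 0.46. The medians of clustered genes and replacement variants differed by 0.21, within the range of either set, which ran from −1.80 to 1.86 for clustered genes and from −0.90 to 1.18 for replacement variants. The shares of higher genes, 35.9% of clustered genes and 33.3% of replacement variants, were also close.

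Gene size moved with the ratio across the table. Of 37 compared protein-coding genes that span up to 1 kb in RefSeq (histones and chemosensory receptors left out), 37.8% were higher and 2.70% lower, and the median log2 ratio was 0.48. Of these, 31 reached 1 in both libraries, and 12 of the 31 were higher and 0 lower, with a median of 0.63. The 26 clustered genes that reached 1 in both, of which 7 were higher and 1 lower, had a median of 0.59. Of 1016 genes spanning 1 to 5 kb, 27.9% were higher and 5.81% lower, and of 3202 spanning 5 to 20 kb, 17.6% were higher and 5.37% lower. Of 5912 genes spanning over 20 kb, 11.3% were higher and 8.86% lower, with a median of 0.14. Of the 39 compared clustered genes, 36 span up to 1 kb. At 3-fold, 5 clustered genes were higher and 2 lower, against 5.76% and 5.20% of all compared rows. Among compared genes, the share of higher clustered genes at 2-fold was close to that of other short genes. The part that gene size plays in it was not tested.

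**Figure D1:**
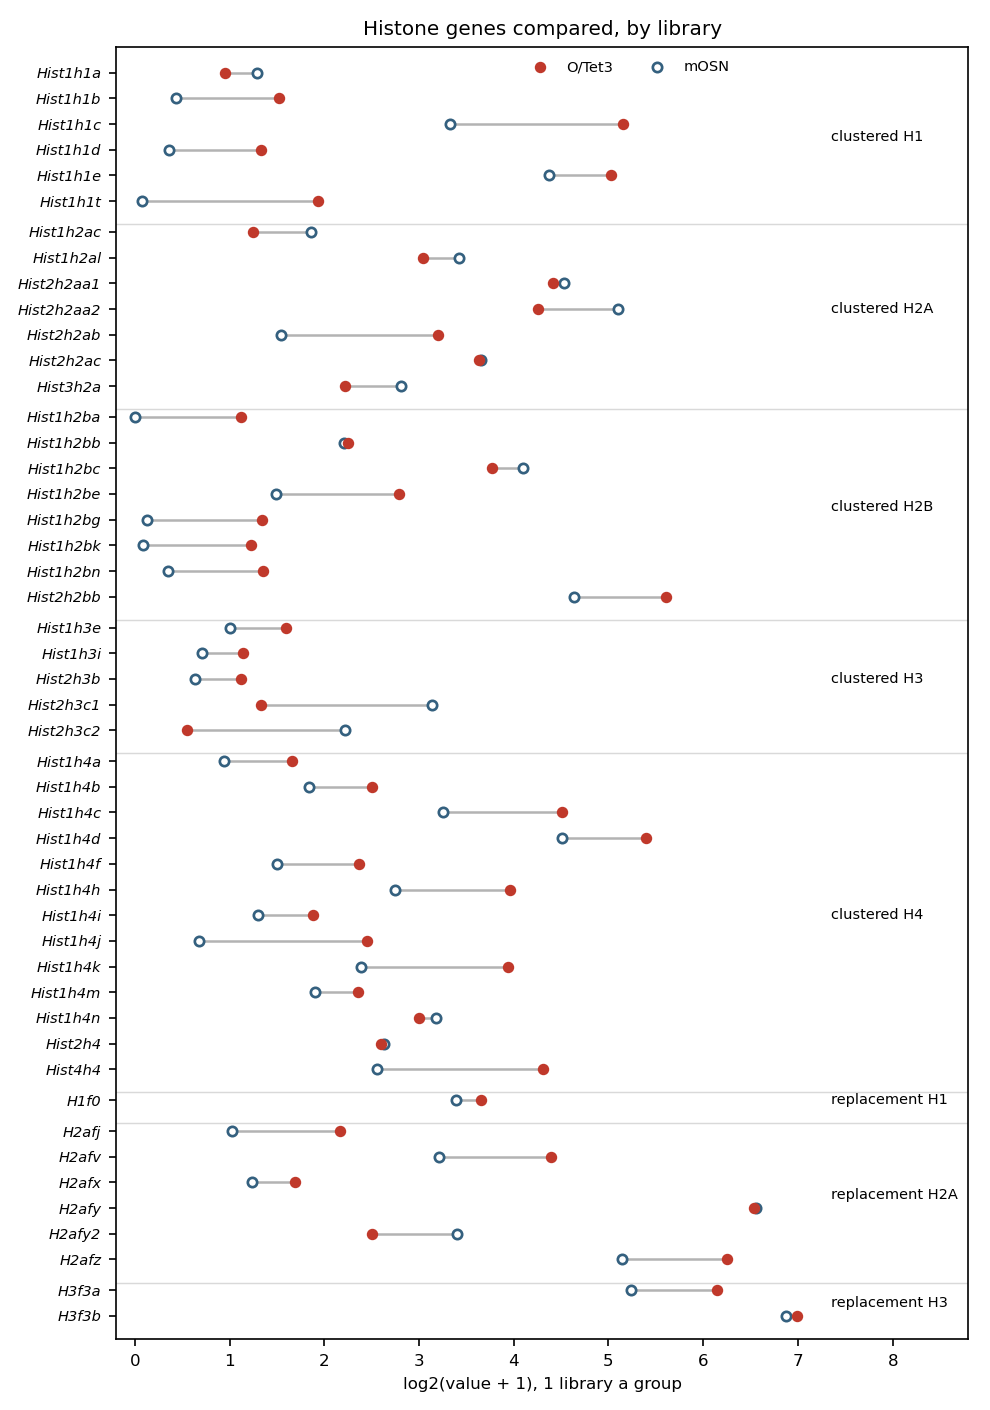
Level of each of the 48 compared histone genes as log2(value + 1), with O/Tet3 as filled red points and mOSN as open blue points, 1 library each, grouped by set and class. Most H1, H2B and H4 genes have the red point to the right, while most clustered H2A genes and the H3 genes Hist2h3c1 and Hist2h3c2 have it to the left.

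**Figure D2:**
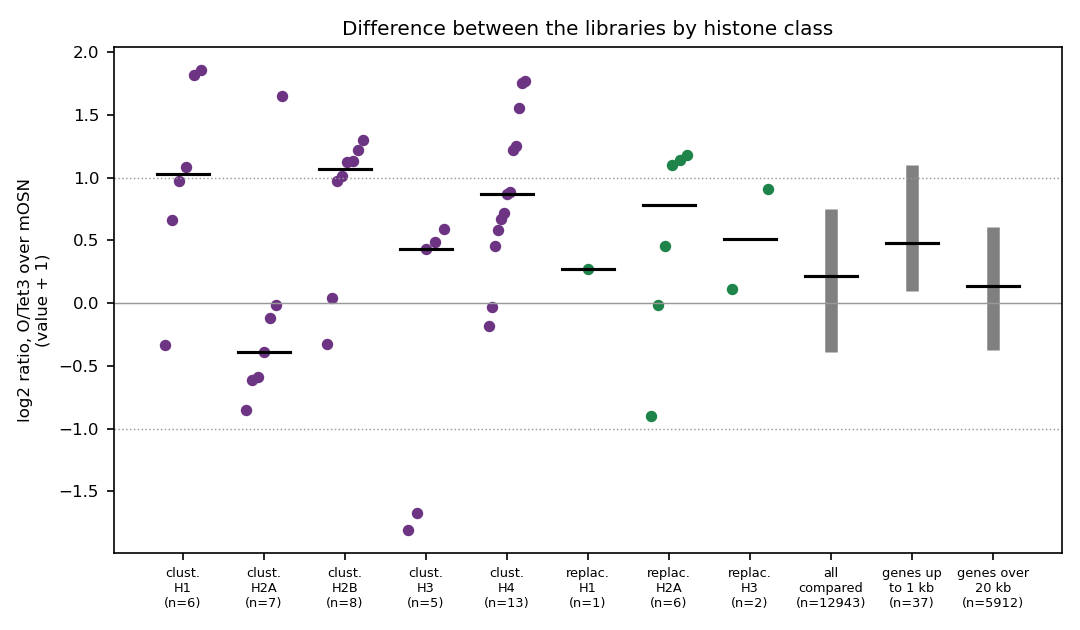
Log2 ratio of O/Tet3 over mOSN (value + 1) for each compared gene by class, with the median as a black bar. Grey bars give the interquartile range of all compared rows and of other protein-coding genes by RefSeq span; dotted lines mark the 2-fold limits.

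The linker histone H1 genes of the Hist1 cluster held some of the largest differences. All 6 could be compared. At 2-fold, 3 (50%) were higher and 0 lower, against 16.5% higher of all compared rows and 37.8% of other genes spanning up to 1 kb. Of these 3, Hist1h1b and the testis gene Hist1h1t passed the floor through O/Tet3 alone, and 1 of the 2 H1 genes that reached 1 in both libraries was higher. Hist1h1c, an H1 subtype common in differentiated cells, was at 34.5 in O/Tet3 and 9.06 in mOSN, 3.81-fold higher. Hist1h1e was at 31.7 in O/Tet3 and 19.6 in mOSN, a log2 ratio of 0.66, below the limit. These 2 genes held most of the clustered H1 value in both libraries, and their order differed: Hist1h1c took 47.1% of the class sum in O/Tet3 and 29.4% in mOSN, while Hist1h1e took 43.2% in O/Tet3 and 63.7% in mOSN. The other subtypes were low. Hist1h1t had the largest log2 ratio of the class, 1.86, at 2.82 in O/Tet3 and 0.0553 in mOSN. Hist1h1b was at 1.88 in O/Tet3 and 0.354 in mOSN, and Hist1h1d at 1.52 in O/Tet3 and 0.286 in mOSN. Only Hist1h1a among the 6 had a smaller value in O/Tet3, at 0.932 against 1.44 in mOSN. The replacement linker histone H1f0, which accumulates in cells that have stopped dividing, was at 11.6 in O/Tet3 and 9.45 in mOSN, a log2 ratio of 0.27. Its relatives H1fx and H1foo were listed at 0 in O/Tet3 and at 0.184 and 0.175 in mOSN.

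Most H4 genes had larger values in O/Tet3. All 13 could be compared, 5 (38.5%) were higher, 0 lower and 11 had a larger value in O/Tet3, and the median log2 ratio was 0.87. Among other genes spanning up to 1 kb, 37.8% were higher and 29 of 37 had a larger value. Over all compared rows, 16.5% were higher and 7826 of 12943 had a larger value. Of the 11 H4 genes that reached 1 in both libraries, 4 were higher, against 12 of 31 other genes spanning up to 1 kb. Hist1h4d, the H4 gene with the largest value in both libraries, was at 41.1 in O/Tet3 and 21.8 in mOSN, a log2 ratio of 0.88. The next was Hist1h4c, at 21.8 in O/Tet3 and 8.54 in mOSN (log2 ratio 1.25). The largest H4 ratio was that of Hist1h4j, at 4.48 in O/Tet3 and 0.605 in mOSN (log2 ratio 1.77). Its near copy Hist1h4k was at 14.4 in O/Tet3 and 4.24 in mOSN. Hist4h4, a single H4 gene on chromosome 6 away from the clusters, was at 18.8 in O/Tet3 and 4.88 in mOSN, 3.86-fold higher. Hist1h4h was at 14.6 in O/Tet3 and 5.70 in mOSN, and completed the 5 higher genes. The remaining 6 with a larger value in O/Tet3, Hist1h4a, Hist1h4b, Hist1h4f, Hist1h4i, Hist1h4m and Hist1h4d, had log2 ratios between 0.46 and 0.88. Hist1h4n, at 7.004 in O/Tet3 and 8.08 in mOSN, and Hist2h4, at 5.05 in O/Tet3 and 5.19 in mOSN, were the 2 with smaller values. The promoters of Hist1h4m and Hist1h4n were 99.7% identical over 299 aligned bases. The H4 genes encode the same protein, so reads from their coding parts may be split between copies, and single H4 values are uncertain where the counting could not separate them.

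Promoters of 5 H4 genes that hold the motif GGTCCG are shown, and of these genes all but Hist1h4n had larger values in O/Tet3. Each is the 110 bases before the RefSeq start in build GRCm38.p6, with Hist1h4c at chr13:23698459-23698568 on the minus strand, Hist1h4d at chr13:23581458-23581567 on the plus strand, Hist1h4k at chr13:21750554-21750663 on the minus strand, Hist1h4n at chr13:21832198-21832307 on the minus strand and Hist4h4 at chr6:136804432-136804541 on the minus strand. Capitals mark GGTCCG, a core of the H4-specific promoter element, TATAAA, or CCAAT, each on either strand.
Hist1h4c: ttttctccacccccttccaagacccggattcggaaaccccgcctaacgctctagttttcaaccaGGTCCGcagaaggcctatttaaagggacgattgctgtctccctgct
Hist1h4d: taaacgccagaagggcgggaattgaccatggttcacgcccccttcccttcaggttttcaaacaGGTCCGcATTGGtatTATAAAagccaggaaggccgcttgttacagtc
Hist1h4k: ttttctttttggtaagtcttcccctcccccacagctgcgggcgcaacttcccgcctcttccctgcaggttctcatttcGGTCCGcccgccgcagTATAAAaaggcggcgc
Hist1h4n: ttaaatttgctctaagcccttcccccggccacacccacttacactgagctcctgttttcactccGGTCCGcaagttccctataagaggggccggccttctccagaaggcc
Hist4h4: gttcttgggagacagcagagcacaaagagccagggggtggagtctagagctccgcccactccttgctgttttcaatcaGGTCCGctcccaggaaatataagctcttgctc
GGTCCG (or CGGACC) was within 250 bases before the start in 9 of 12 H4 genes, against 6.82% of 27025 mouse promoters. It was also in 1 of 16 H2B, 1 of 10 H3 and 3 of 14 replacement promoters (H1fx, H2afy and H2afy2), and in 0 of 17 H2A and 0 of 6 H1 promoters. It was chosen after the H4 promoters had been seen. Hist1h4n, which was not higher, holds it as well. Hist1h4h, which was higher (log2 ratio 1.22), had no full copy within these 250 bases. Its window ends in ggtcc, the motif without its last base, so a copy running past the RefSeq start would be missed. CCAAT (or ATTGG) was in 3 of the 12 H4 promoters, but in all 6 H1, all 17 H2A and all 16 H2B promoters, against 34.5% of all promoters. TATAAA (or TTTATA) was in 29 of 61 clustered and 1 of 14 replacement promoters, against 12.97% of all. None of the motifs searched contains another.

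Of 18 clustered H2B genes, 8 could be compared, and 5 (62.5%) were higher and 0 lower. Among all compared rows 16.5% were higher, and among other genes spanning up to 1 kb 37.8%. Of the 5, 4 (Hist1h2ba, Hist1h2bg, Hist1h2bk and Hist1h2bn) passed the floor through O/Tet3 alone, and 1 of the 4 H2B genes that reached 1 in both libraries was higher. Hist2h2bb, the H2B member with the largest value in both libraries, was at 47.7 in O/Tet3 and 23.8 in mOSN, 2.00-fold higher in its values but with a log2 ratio of 0.97, just under the limit. Hist1h2bc followed at 12.7 in O/Tet3 and 16.1 in mOSN. Hist1h2bb was at 3.76 in O/Tet3 and 3.61 in mOSN. The higher genes had lower values. Hist1h2be was at 5.92 in O/Tet3 and 1.82 in mOSN. Hist1h2bg was at 1.53 in O/Tet3 and 0.0896 in mOSN, Hist1h2bk at 1.34 in O/Tet3 and 0.0637 in mOSN, and Hist1h2bn at 1.56 in O/Tet3 and 0.272 in mOSN. These last values rest on few reads in mOSN, where the lowest value above 0 of any clustered gene was 0.0319, against 0.0847 in O/Tet3. Hist2h2be, left out of the members, went far the other way, at 16.1 in O/Tet3 and 176 in mOSN (log2 ratio −3.37).

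Promoters of Hist1h2bg, Hist1h2bk and Hist2h2bb are shown for the octamer ATTTGCAT, the element bound by POU factors in H2B promoters, in capitals together with TATAAA and CCAAT. They are again the 110 bases before the RefSeq start, with Hist1h2bg at chr13:23571290-23571399 on the plus strand, Hist1h2bk at chr13:22035711-22035820 on the plus strand and Hist2h2bb at chr3:96269590-96269699 on the plus strand.
Hist1h2bg: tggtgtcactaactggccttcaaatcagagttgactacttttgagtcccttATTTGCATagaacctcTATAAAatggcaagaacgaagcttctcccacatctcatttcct
Hist1h2bk: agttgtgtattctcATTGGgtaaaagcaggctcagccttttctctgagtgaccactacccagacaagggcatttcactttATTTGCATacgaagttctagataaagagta
Hist2h2bb: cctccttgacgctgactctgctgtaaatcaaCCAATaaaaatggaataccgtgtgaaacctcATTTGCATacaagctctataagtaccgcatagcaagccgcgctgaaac
The octamer (or ATGCAAAT) was in 6 of 16 H2B and 7 of 17 H2A promoters, in 0 of 12 H4 and 0 of 6 H1 promoters, and in 1.61% of all promoters. H2A and H2B genes often stand head to head, so the windows of both can hold the same bases.

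Of 20 clustered H2A rows, 7 could be compared, and 1 (14.3%, against 16.5% of all compared rows) was higher and 0 lower. Of these 7, 6 had a smaller value in O/Tet3, and their median log2 ratio was −0.39. Over all 20 rows no direction prevailed, with 8 larger in O/Tet3, 8 smaller and 4 listed at 0 in both. Hist2h2aa2 was at 18.1 in O/Tet3 and 33.4 in mOSN, and its near copy Hist2h2aa1 at 20.3 in O/Tet3 and 22.2 in mOSN. The promoters of these copies were 98.8% identical over 249 aligned bases. Hist2h2ac was the most even, at 11.4 in O/Tet3 and 11.6 in mOSN. Hist2h2ab, its neighbour in the Hist2 cluster, was the single higher gene, at 8.16 in O/Tet3 and 1.92 in mOSN (log2 ratio 1.65). Hist1h2ac was at 1.37 in O/Tet3 and 2.64 in mOSN, and Hist3h2a at 3.67 in O/Tet3 and 6.02 in mOSN. Hist1h2al, which RefSeq annotates as a transcribed pseudogene, was at 7.21 in O/Tet3 and 9.73 in mOSN.

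Where the strand of both genes was available, 9 head-to-head H2A and H2B pairs had no other gene between their starts. In 4 of them the H2B gene was higher, each time having passed the floor through O/Tet3 alone. In 0 of the 9 did the H2A gene reach a value of 1, so partners in these pairs could not be compared. Hist1h2ac and Hist1h2bc are also neighbours with no gene between, but no strand was available for Hist1h2bc, so they were not counted. Both could be compared and had smaller values in O/Tet3, with log2 ratios of −0.62 and −0.32. Hist1h2bk was at 1.34 in O/Tet3 and 0.0637 in mOSN, while its partner Hist1h2ah was listed at 0 in both. Hist1h2bg and Hist1h2ae stood alike, the H2A gene again listed at 0 in both. Hist1h2ak was at 0.110 in O/Tet3 and 0.289 in mOSN, while its partner Hist1h2bn was at 1.56 in O/Tet3 and 0.272 in mOSN. The Hist1 H2A genes are near-identical in their coding parts, and the sources used here do not say how reads shared between them were counted.

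Clustered H3 genes had the smallest summed value of the clustered classes. Of 13 rows, 5 could be compared, 0 were higher and 2 (40%, against 12.0% of all compared rows) lower. The median log2 ratio was 0.43. Over all 13 rows, 7 had a larger value in O/Tet3 and 3 a smaller one. Both lower genes are H3 genes of the Hist2 cluster: Hist2h3c1 was at 1.51 in O/Tet3 and 7.78 in mOSN, 5.14-fold lower, and Hist2h3c2 at 0.460 in O/Tet3 and 3.65 in mOSN, 7.93-fold lower. Another Hist2 gene, Hist2h3b, was at 1.18 in O/Tet3 and 0.558 in mOSN. In the Hist1 cluster, Hist1h3e was at 2.03 in O/Tet3 and 1.01 in mOSN, and Hist1h3i at 1.1995 in O/Tet3 and 0.629 in mOSN. The row Hist2h3c1.1, a repeat of a name in the table, was listed at 0 in both.

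The promoters of the 2 lower genes are shown because they are near copies, 99.6% identical over 285 aligned bases, so their values may not be independent. They are the 110 bases before the RefSeq start, with Hist2h3c1 at chr3:96246575-96246684 on the plus strand and Hist2h3c2 at chr3:96239128-96239237 on the minus strand. The windows are offset because the annotated starts differ, and neither holds any of the 4 motifs.
Hist2h3c1: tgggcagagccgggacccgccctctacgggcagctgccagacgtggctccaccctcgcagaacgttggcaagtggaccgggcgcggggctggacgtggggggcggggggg
Hist2h3c2: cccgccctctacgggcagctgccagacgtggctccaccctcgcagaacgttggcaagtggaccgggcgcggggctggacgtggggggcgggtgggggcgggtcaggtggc

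By locus, 12 of the 14 higher clustered genes carry a Hist1 name. Of 28 compared Hist1 genes, all on chromosome 13, 12 (42.9%) were higher and 0 lower, and the median log2 ratio was 0.88. Of 9 compared Hist2 genes on chromosome 3, 1 (11.1%) was higher and 2 (22.2%) lower, with a median of −0.03. Over all compared rows 16.5% were higher and 12.0% lower, and over other genes spanning up to 1 kb 37.8% and 2.70%, so the Hist1 share was near that of short genes. Among genes that reached 1 in both libraries, 5 of 17 Hist1 genes were higher and 0 lower, and 1 of 7 Hist2 genes was higher and 1 lower. The Hist2 cluster has 5 of its 9 compared genes in the H2A and H3 pairs of copies and their neighbour Hist2h2ac, and its H2B gene Hist2h2bb stood near the limit, so class and locus overlap. Hist1h2al lies apart from the other Hist1 genes, with 491 RefSeq genes between it and the nearest. H2afj, a replacement H2A gene, is the head-to-head neighbour of Hist4h4 on chromosome 6, and both were higher in O/Tet3.

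**Figure D3:**
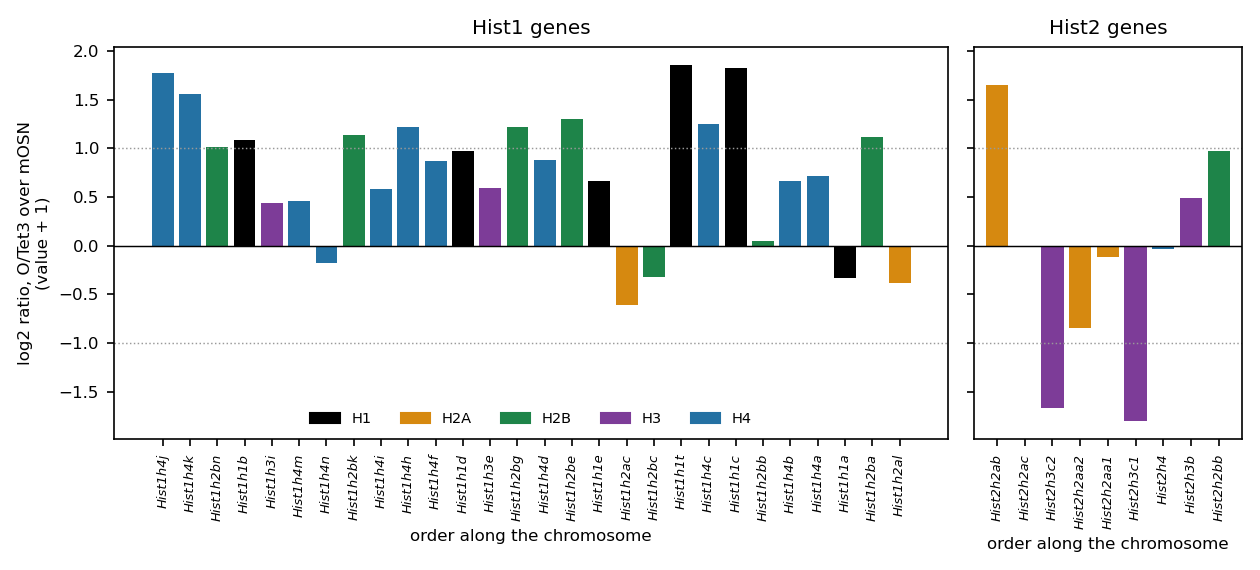
Log2 ratio of O/Tet3 over mOSN (value + 1) for compared genes of the Hist1 (28) and Hist2 (9) loci in their order along the chromosome in RefSeq, coloured by class. Genes at least 2-fold higher in Hist1 are spread along the cluster, Hist1h2al at its right end lies outside it, and the lower genes Hist2h3c2 and Hist2h3c1 flank the pair Hist2h2aa2 and Hist2h2aa1.

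Low-level clustered genes were also listed above 0 more often in O/Tet3. In O/Tet3 60 of the 70 had a value above 0, against 48 in mOSN. Of the 22 listed at 0 in mOSN, 14 (63.6%) were above 0 in O/Tet3, against 12.3% of all rows listed at 0 in mOSN and 3.31% of those among other genes spanning up to 1 kb. Of the 48 above 0 in mOSN, 2 (4.17%), Hist1h2ad and Hist1h2bh, were listed at 0 in O/Tet3, against 16.2% of all rows and 39.0% of other genes spanning up to 1 kb. The 14 comprised 6 H2A, 5 H2B and 3 H3 genes. Their values in O/Tet3 ran from 0.0847 to 0.747, except Hist1h2ba at 1.17. Values this low rest on few reads, of which each stood for more in O/Tet3, and near-identical copies can share reads. A listed 0 may also be an estimate that failed.

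Among replacement variants of H2A, the H2A.Z genes were higher and the macroH2A genes were not. H2afz, encoding H2A.Z, a variant found at promoters, was at 75.04 in O/Tet3 and 34.4 in mOSN (log2 ratio 1.10). H2afv, encoding a second form of H2A.Z, was at 20.02 in O/Tet3 and 8.27 in mOSN (log2 ratio 1.18). H2afy, encoding macroH2A, a variant of repressed chromatin, was at 91.9 in O/Tet3 and 93.02 in mOSN. H2afy2, the second macroH2A gene, was at 4.68 in O/Tet3 and 9.58 in mOSN, 2.05-fold lower in its values but with a log2 ratio of −0.90, inside the limit. H2afj was at 3.49 in O/Tet3 and 1.04 in mOSN, and made the third higher gene. H2afx, whose product is phosphorylated at DNA breaks, was at 2.23 in O/Tet3 and 1.36 in mOSN. The 3 higher log2 ratios lie between 1.10 and 1.18, and all fall under 1 once the shift of all rows, 0.21, is subtracted.

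The H3 variant made outside S phase comes from H3f3a and H3f3b, which encode the same protein. H3f3b had the largest value of all members in both libraries, at 126 in O/Tet3 and 116 in mOSN. H3f3a was at 69.7 in O/Tet3 and 36.7 in mOSN (log2 ratio 0.91). The larger gene was thus nearly even while its partner differed almost 2-fold in value + 1. H3f3c and the pseudogene H3f3a-ps1 were listed at 0 in both libraries, and H3f3a-ps2 was at 0.153 in O/Tet3 and 0.0802 in mOSN.

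The promoters of H2afz and H3f3b are shown beside those of the clustered genes. They are the 110 bases before the RefSeq start, with H2afz at chr3:137864377-137864486 on the plus strand and H3f3b at chr11:116024505-116024614 on the minus strand, and capitals mark CCAAT, the octamer and the motif TATAAA on either strand.
H2afz: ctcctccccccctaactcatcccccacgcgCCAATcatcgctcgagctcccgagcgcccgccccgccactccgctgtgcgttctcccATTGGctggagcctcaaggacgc
H3f3b: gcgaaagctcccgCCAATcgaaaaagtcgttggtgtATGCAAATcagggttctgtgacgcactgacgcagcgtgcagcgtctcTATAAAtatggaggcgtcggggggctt
H3f3b was the single replacement variant of 14 with TATAAA, and the single one with the octamer, within 250 bases before the start, while CCAAT was in 8 of the 14.

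Summed over the members of each class, clustered H4, H1 and H2B values were higher in O/Tet3, while H3 and H2A values were lower. In the lower H2A sum the largest part came from Hist2h2aa2, but 6 of the 7 compared H2A genes had smaller values. The larger value of Hist2h2ab, at 8.16 in O/Tet3 and 1.92 in mOSN, offset part of these. The lower H3 sum came through the near copies Hist2h3c1 and Hist2h3c2. The sums take the values as comparable between genes. Cuffdiff prints values per length, and in O/Tet3 and mOSN the 5th percentile of values above 0 was 0.0779 and 0.0489 in genes spanning up to 1 kb, against 0.0345 and 0.0209 in genes over 20 kb, but the table does not name the unit. The clustered H4 sum was 145 in O/Tet3 and 68.6 in mOSN, 2.11-fold higher. Other protein-coding genes spanning up to 1 kb summed to 591 in O/Tet3 and 278 in mOSN, 2.13-fold higher, and those spanning 1 to 5 kb were 1.67-fold higher. The H4, H1 and H2B sums thus differed about as sums of other short genes did. The clustered H1 sum was 73.4 in O/Tet3 and 30.8 in mOSN, and the clustered H2B sum 79.0 in O/Tet3 and 47.2 in mOSN. The H2B sum leaves out Hist2h2be, which was at 16.1 in O/Tet3 and 176 in mOSN. With that gene counted, the H2B sum would be lower in O/Tet3. The clustered H2A sum was 73.4 in O/Tet3 and 88.2 in mOSN, and without its largest member Hist2h2aa2 it was even, at a ratio of 1.01. The clustered H3 sum was 8.05 in O/Tet3 and 14.4 in mOSN, and without Hist2h3c1 its ratio was 0.98. That remainder still holds the near copy Hist2h3c2, at 0.460 in O/Tet3 and 3.65 in mOSN. Over the clustered classes the ratio of sums thus ran between 0.558 for H3 and 2.38 for H1.

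Replacement variants made up most of the H3 value in both libraries. They held 96.1% of the summed H3 value in O/Tet3 and 91.4% in mOSN. Of the summed H2A value they held 72.9% in O/Tet3 and 62.6% in mOSN. For the linker histone H1 the direction was the opposite, with H1f0 and its relatives at 13.8% in O/Tet3 and 24.1% in mOSN. These shares compare RNA values within a library and say nothing of protein.

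**Figure D4:**
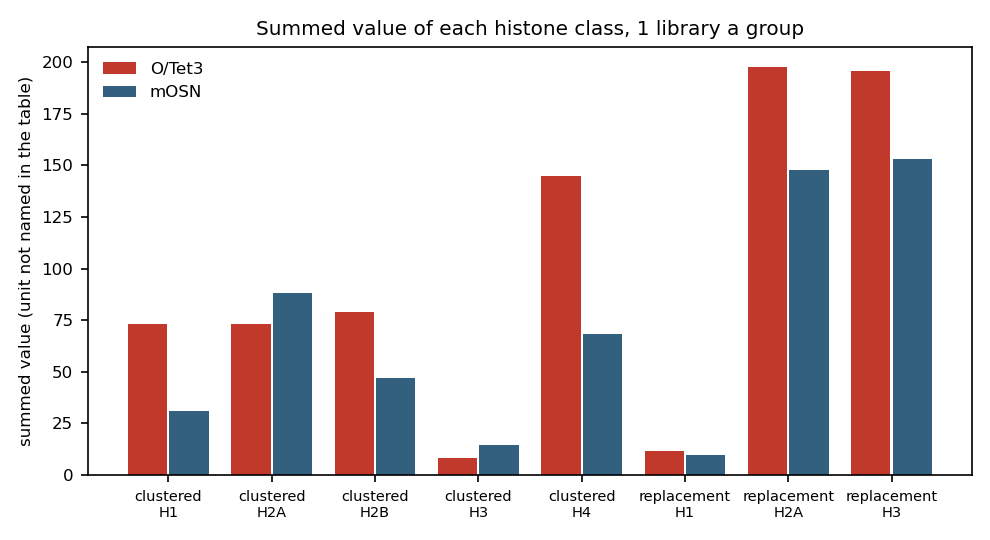
Summed value of all members of each class in O/Tet3 (red) and mOSN (blue), 1 library each, with members listed at 0 counted as 0. Clustered H4 stands at 145 in O/Tet3 and 68.6 in mOSN, and replacement H3 at 196 in O/Tet3 and 153 in mOSN.

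Germline-restricted members were mostly at or near 0. Of the 8, 4 were listed at 0 in both libraries, among them the testis H2A gene Hist1h2aa. Besides the linker histone Hist1h1t, given above, Hist1h2ba, the testis H2B gene, could be compared, at 1.17 in O/Tet3 and listed at 0 in mOSN. Both count among the 14 higher clustered genes and passed the floor through O/Tet3 alone. H1fnt, a testis linker histone, was at 0.101 in O/Tet3 and listed at 0 in mOSN. The oocyte linker histone H1foo had its value in mOSN alone, as given with H1f0.

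Genes that process histone messages were higher about as often as all rows. Of 19 compared members of a list of 20, 3 were higher and 0 lower, or 15.8%, near the 16.5% of all rows. Slbp, the protein that binds the histone stem-loop, was at 26.5 in O/Tet3 and 9.86 in mOSN. Lsm10, part of the U7 particle that cuts histone messages, was at 2.80 in O/Tet3 and 0.291 in mOSN. Snrpd3, a protein shared by U7 and spliceosomal particles, was at 31.9 in O/Tet3 and 10.1 in mOSN. Npat, a coactivator of clustered histone genes, was at 5.50 in O/Tet3 and 3.08 in mOSN, below the limit. Zfp473, a zinc finger protein that joins the U7 complex, had the smaller value in O/Tet3, at 0.373 against 1.22 in mOSN.

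The 6 compared chaperones that feed histones to replicating DNA had larger values in O/Tet3, but 4 of them stayed within the 2-fold limits. All 8 compared chaperones that work outside S phase also stayed within these limits. Of 6 compared replication-coupled genes, 2 (33.3%, against 16.5% of all compared rows) were higher and 0 lower: Nasp, an H3 and H4 carrier, at 20.5 in O/Tet3 and 7.76 in mOSN, and Hat1, which acetylates new H4, at 17.8 in O/Tet3 and 7.99 in mOSN. Chaf1a, the large subunit of the assembly factor CAF-1, was at 2.68 in O/Tet3 and 2.39 in mOSN. Of 8 compared replication-independent genes 0 were higher and 0 lower, with 3 values larger in O/Tet3 and 5 smaller. Hira, which deposits the H3f3a and H3f3b product, was at 12.1 in O/Tet3 and 15.4 in mOSN, and Daxx, which does so at repeats, at 2.82 in O/Tet3 and 3.85 in mOSN. Among 18 compared exchange factors and other chaperones 4 (22.2%) were higher and 1 lower, near the 16.5% of all compared rows. Anp32e, which removes H2A.Z from chromatin, was at 117 in O/Tet3 and 56.5 in mOSN, higher as the H2A.Z genes were. Npm1 was at 163 in O/Tet3 and 50.5 in mOSN, and Nap1l5, a nucleosome assembly protein of neurons, at 116 in O/Tet3 and 8.10 in mOSN. Hjurp, the chaperone of the centromere histone, was the lower gene, at 9.76 in O/Tet3 and 50.7 in mOSN.

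Of 33 S phase and mitosis genes 14 could be compared, and 2 (14.3%) were higher and 0 lower, near the 16.5% of all compared rows. Pcna, the sliding clamp of DNA replication, held the largest value of the list, at 33.1 in O/Tet3 and 18.4 in mOSN. Mcm7, a helicase subunit, was at 11.6 in O/Tet3 and 5.47 in mOSN, and the summed value was 73.5 in O/Tet3 and 40.7 in mOSN. The higher ones were Ccne2, a cyclin of S phase entry, at 2.84 in O/Tet3 and 0.399 in mOSN, and the helicase subunit Mcm6, at 2.48 in O/Tet3 and 0.366 in mOSN. Mki67, a defining marker of cycling cells, was at 0.0517 in O/Tet3 and 0.144 in mOSN, and Top2a at 0.793 in O/Tet3 and 0.491 in mOSN. The 9 cycling progenitor markers summed to 3.34 in O/Tet3 and 1.71 in mOSN, with 5 larger in O/Tet3 and 4 smaller. Kit, the only 1 of them that could be compared, was at 1.73 in O/Tet3 and 0.741 in mOSN. Cdk1, the mitotic kinase, was at 0.349 in O/Tet3 and listed at 0 in mOSN. Among 10 markers of immature neurons, 4 (40%) were higher and 1 (10%) was lower, against 16.5% and 12.0% of all compared rows. Their sum was 163 in O/Tet3 and 113 in mOSN, but they went both ways, with 6 larger in O/Tet3 and 4 smaller. The largest ratios in each direction were those of Sox11, at 6.05 in O/Tet3 and 0.383 in mOSN, and Dpysl5, at 1.46 in O/Tet3 and 7.98 in mOSN. Sums of sustentacular markers were 18.5 in O/Tet3 and 38.4 in mOSN, and of glia, blood and vessel markers 40.7 in O/Tet3 and 66.5 in mOSN. The basal, gland and microvillous markers summed to 3.56 in O/Tet3 and 4.60 in mOSN. Of these 10, 4 were larger in O/Tet3 and 6 smaller, and Pou2f3 alone was at 2.90 in O/Tet3 and 0.582 in mOSN. The part of these cells in the histone values was not tested, and fewer cells of a type cannot be told apart from less RNA per cell.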

How the data were processed

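RNA of 2 sorted cell samples was compared, 1 library each. Per the labels' protocols, RiboMinus removed ribosomal RNA, ScriptSeq was used to build the libraries, and PCR followed. Build mm9 and the tools Cuffdiff, Bowtie2 and Bowtie are named, without roles or versions, in the submitters' processing notes. The annotation and the handling of strand and shared reads are not given in the sources used here. The authors deposited log2 values per gene and their difference. That the scale is log2(value + 1) was found from the values: the lowest is 0, and 99.3% of O/Tet3 and 99.4% of mOSN linear values above 0.01 had at most 6 significant digits (relative tolerance 1e-09). Read counts and depth are not in the table. Columns were matched to samples by their abbreviated genotypes.

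Ratios, medians and counts were computed with Python 3.11.15, numpy 2.4.6 and pandas 2.3.3, after a check on simulated data, and promoters were aligned with Biopython 1.88. Any compared member or germline member could be named, and of each other list up to 6 compared genes with the largest ratio. Other members below a value of 1, and the markers Mki67, Top2a and Cdk1, were named after their values were seen. The promoter motif GGTCCG was added likewise to the other 3. Of the 89 members, 86 matched 1 RefSeq gene (GRCm38.p6, used for names, order, span and promoters) and 75 had a promoter entry. Members and lists were chosen with earlier results of these data known.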

Additional observations from a re-analysis of the deposited data

How the results depend on the processing

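With 1 library a group, depth, strain and genotype cannot be told apart, and nothing here has a replicate check. No paired analysis was possible because there is 1 library in each group. Leaving out pseudogenes was chosen after seeing the data. The table was also recomputed with other settings, and a median or single ratio was said to move when it differed by at least 0.25, a count or sum ratio by over 1.5 times. With a floor of 5 in either library, 7 of 19 compared clustered genes were higher and 1 lower, against 1401 and 793 of 7149 rows. At 3-fold, 5 clustered genes were higher, where 5.76% of all rows were higher. A stricter floor or fold counts fewer genes by construction. With a pseudocount of 0.1 the median of clustered genes was 0.94. Without a floor it was 0.35 and that of replacement variants 0.067, where genes listed at 0 in both enter at 0. Higher replacement variants numbered 0 at 3-fold and 0 after centring on the median of all rows, and lower ones 1 after centring and 1 with a pseudocount of 0.1, in each case H2afy2. Without its largest member the sum ratio was 1.01 for clustered H2A and 0.28 for replacement H1, both reversed, and 0.98 for clustered H3. The other 55 recomputed values of counts, medians and sums stayed within these bounds. Of the 96 recomputed single-gene ratios, 20 moved, all with the pseudocount of 0.1, and no called gene changed direction; centring shifts each ratio by 0.21.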

Other observations

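A pair of other histone genes outside the row-name rule were low in both libraries. Cenpa, the centromere variant of H3, was at 0.380 in O/Tet3 and 0.157 in mOSN, and its chaperone Hjurp was far above it in both. Hils1, a spermatid linker histone, was listed at 0 in O/Tet3 and was at 0.162 in mOSN.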
